A study of Homo sapiens with 4 samples.

Results

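The genes described here encode the secretases that cut the amyloid precursor protein APP, together with APLP2, a homologue of APP. They are the α-secretase genes ADAM10 and ADAM17, the β-secretase genes BACE1 and BACE2, 4 genes of the γ-secretase complex (PSEN2, NCSTN, APH1A and PSENEN) and APLP2, 9 of the 19468 genes that could be named. The rule that chose them goes by symbol and uses no measured value, although they were chosen with earlier results of these data known. All 9 were measured, through 12 sequence accessions (records). The study transfected MDA-LM2 cells, which were derived from human MDA-MB-231 breast cancer cells by selection for lung metastasis, and profiled total RNA on Illumina expression BeadChips 48 hours later. The knockdown group holds 2 arrays, siTARBP2-1 and siTARBP2-2, each from a different siRNA against TARBP2, which encodes a double-stranded RNA-binding partner of Dicer. The control group holds 2 arrays, siControl-1 and siControl-2, from the same cells given a control siRNA with the same lipid reagent, although the series' design text speaks of mock transfection. Nothing in the labels says that the arrays of a group came from separate cultures, so p-values measure only the spread between these samples.

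The secretases release parts of membrane proteins by cutting them in order. An α-secretase or a β-secretase first removes the large outer part of APP, and γ-secretase then cuts the remaining stub inside the membrane. Cutting by ADAM10 falls within the amyloid-β stretch, whereas cutting by BACE1 makes its first end. γ-Secretase is built from a presenilin, nicastrin, an APH-1 protein and PEN-2, and also cuts Notch receptors. APLP2 is processed by the same enzymes but contains no amyloid-β stretch. APP and its relatives are also made outside the nervous system, breast epithelium included.

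Values for named genes come from the authors' deposited table, which lists 1 log fold change of siTARBP2 over siControl for each accession. It gives no value per array and no replicate error. The log base is not stated and is read here as log2, so sizes depend on that reading. A gene's value is the mean over its records in the authors' deposited table. The bound of 0.2 used below is that of the authors' class 1, whose lowest value in the authors' deposited table is 0.200012 and whose class 0 reaches 0.199963; it was mirrored to -0.2 on the lower side. The probes of the array tables carry no gene names, so none of the 9 genes could be tested, and no value per sample can be given. The targeted gene, TARBP2, had -0.78 in the authors' deposited table, with records at -0.98 and -0.58.

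**Figure D1:**
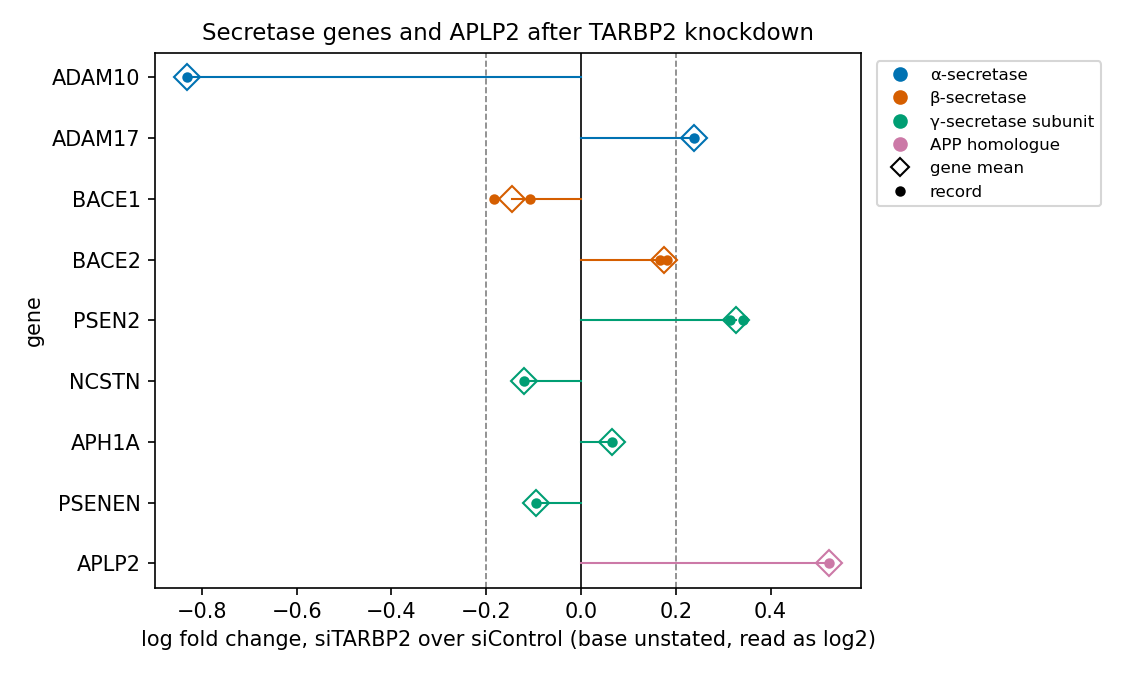
Log fold change of siTARBP2 over siControl (x axis, base unstated, read as log2) for the 9 genes (y axis) in the authors' deposited table. Small points are records, open diamonds are gene means and dashed lines mark -0.2 and 0.2. ADAM10 lies alone below -0.2, while ADAM17, PSEN2 and APLP2 lie above 0.2.

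The 9 genes did not share a direction. In the authors' deposited table, ADAM17, PSEN2 and APLP2 stood above 0.2 (3 of 9 genes, where 13.1% of all named genes did) and ADAM10 stood below -0.2 (1 of 9 genes, where 12.1% of all named genes did). In either direction 4 of 9 genes of the authors' deposited table were beyond 0.2, beside 25.2% of all named genes. Named genes were not filtered by detection, so the shares over all named genes can include genes not detected in these cells. The same holds for the 9 genes, so a value inside the bound does not show an unchanged RNA. At other bounds, 7 of the 9 genes were beyond 0.1 in the authors' deposited table (42.5% of all named genes) and 2 were beyond 0.5 (6.35% of all named genes). The 5 genes inside 0.2 in the authors' deposited table lay between -0.15 and 0.17. The median of the 9 genes in the authors' deposited table was 0.07, beside 0.0024 over all named genes. By sign, the authors' deposited table put 5 of the genes above 0 and 4 under it. By record, 4 of the 12 records in the authors' deposited table had class 1, those of ADAM17, PSEN2 (both records) and APLP2. Of all 39745 records, named or not, 9.11% had it. The 12 records are all named ones, and the share among named records alone was not computed, so these sets are unlike.

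**Figure D2:**
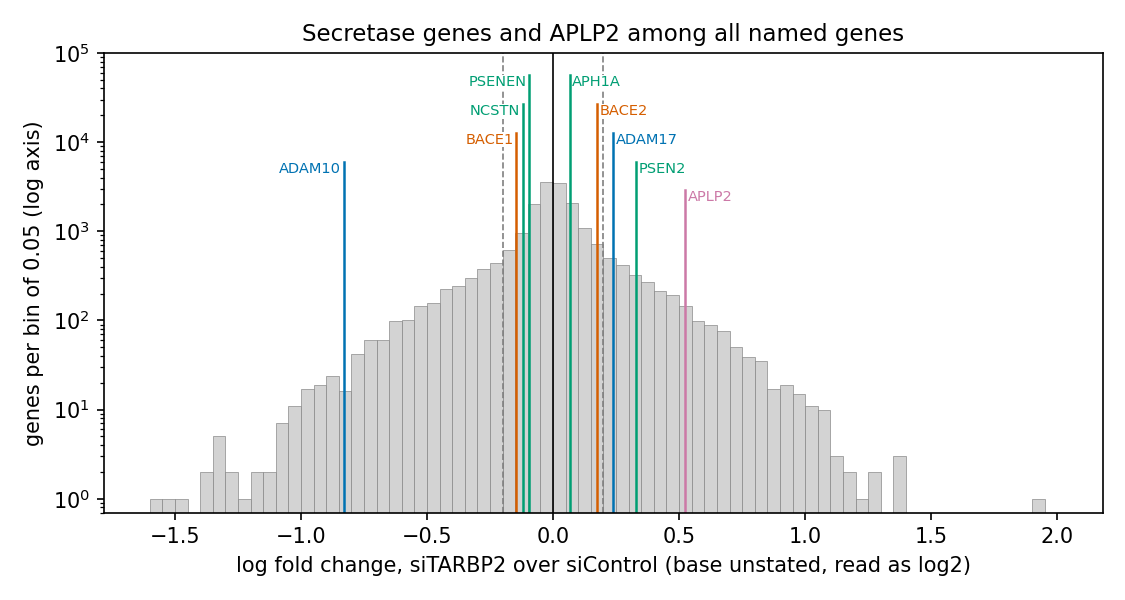
Distribution of the log fold change of siTARBP2 over siControl (x axis, base unstated, read as log2) over 19468 named genes of the authors' deposited table, in bins of 0.05 with the number of genes on a log axis. Coloured lines mark the 9 genes and dashed lines -0.2 and 0.2. ADAM10 (-0.83) sits in the lower tail and APLP2 (0.52) in the upper flank, while BACE1, BACE2, NCSTN, APH1A and PSENEN lie between the dashed lines.

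The α-secretase genes stood on opposite sides of 0. ADAM10, which encodes the main constitutive α-secretase of neurons and the sheddase of Notch receptors, had a log fold change of -0.83 in the authors' deposited table, from 1 record. Only 97 of the 19468 genes had a lower value than ADAM10 in the authors' deposited table, and 1.0% of genes lay farther from 0. ADAM17, the sheddase of tumour necrosis factor and of several EGFR ligands, had 0.24 in the authors' deposited table, also from 1 record. It was thus just inside the authors' class 1, with 21.3% of genes farther from 0 than ADAM17 in the authors' deposited table. ADAM17 minus ADAM10 was 1.07 in the authors' deposited table. For scale, the 2 records of a gene differed by a median of 0.12 over the 2131 genes with 2 records in the authors' deposited table, and by no more than 0.45 for 90% of them. A difference above 1.07 between records occurred in 0.235% of these genes of the authors' deposited table. Records of 1 gene are not the same measure as 2 genes, which can differ more. Genes not detected, which can have records near 0, were not left out. The records of a gene share 1 comparison, so such differences do not measure the spread between arrays or siRNAs. This share is therefore not a p-value, and the difference between ADAM17 and ADAM10 was not tested.

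The β-secretase genes also stood on opposite sides of 0, but both inside the bound. BACE1, the enzyme that starts amyloid-β release in neurons, had -0.15 in the authors' deposited table, with records at -0.18 and -0.11. BACE2, its homologue found mainly outside the brain, which cuts APP within the amyloid-β stretch, had 0.17 in the authors' deposited table, with records at 0.17 and 0.18. The records of each gene thus shared a sign and lay close together. BACE2 minus BACE1 was 0.32 in the authors' deposited table, and 17.9% of the genes with 2 records had a larger difference between their records. A difference of this size is therefore within what records of 1 gene can show in the authors' deposited table.

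Of the 4 γ-secretase genes, PSEN2 alone was beyond the bound. PSEN2, a presenilin, the kind of subunit that carries the active site, had 0.33 in the authors' deposited table, with records at 0.31 and 0.34, both of class 1. NCSTN, which encodes the substrate-gating subunit nicastrin, had -0.12 in the authors' deposited table. APH1A, which encodes a scaffold subunit, had 0.07 in the authors' deposited table. PSENEN, which encodes PEN-2, the subunit needed for cleavage of presenilin into its active form, had -0.09 in the authors' deposited table. The partner genes NCSTN, APH1A and PSENEN had 1 record each and all lay inside the bound in the authors' deposited table. APH1B, which encodes an alternative to APH1A in the complex, had 0.20 in the authors' deposited table, just past the bound and of class 1. APH1A minus APH1B was -0.14 in the authors' deposited table, which 44.1% of the genes with 2 records exceeded between their own records.

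Among the substrates, APLP2, a widely made membrane protein that is cut like APP, had 0.52 in the authors' deposited table, the highest value of the 9 genes. A higher value than that of APLP2 was listed for 547 genes in the authors' deposited table, and 5.65% of genes lay farther from 0. This value rests on 1 of the 39 RefSeq transcripts now annotated for APLP2. APP itself had 0.36 in the authors' deposited table, with records at 0.55 and 0.18, so that 1 record fell outside class 1. APLP1, the member of the family known mainly from neurons, had 0.11 in the authors' deposited table, with records at 0.12 and 0.09. All 3 genes of the APP family were thus above 0 in the authors' deposited table, in the order APLP2, APP and APLP1. APLP2 minus APP was 0.16 in the authors' deposited table, less than the 0.37 between the records of APP, so the order of these neighbours is not set by these values. APLP2 minus APLP1 was 0.42 in the authors' deposited table, and 11.3% of genes with 2 records had a larger difference between them.

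The promoters of ADAM10 and APLP2 are shown because these genes had the lowest and the highest value of the 9. Each window runs from 250 bases before to 50 bases after the annotated start, 5′ to 3′ on the strand of the gene, from RefSeq (GRCh38.p14). Capitals mark the GC box GGGCGG and the palindromic E-box CACGTG, searched on both strands.
ADAM10, chr15:58749658-58749957, minus strand: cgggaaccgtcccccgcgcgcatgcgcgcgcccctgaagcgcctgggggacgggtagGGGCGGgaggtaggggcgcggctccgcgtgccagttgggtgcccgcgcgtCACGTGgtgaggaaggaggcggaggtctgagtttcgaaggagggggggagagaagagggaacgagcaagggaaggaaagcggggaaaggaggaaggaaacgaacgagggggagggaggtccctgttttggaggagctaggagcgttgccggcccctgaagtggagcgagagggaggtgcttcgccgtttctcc
APLP2, chr11:130070318-130070617, plus strand: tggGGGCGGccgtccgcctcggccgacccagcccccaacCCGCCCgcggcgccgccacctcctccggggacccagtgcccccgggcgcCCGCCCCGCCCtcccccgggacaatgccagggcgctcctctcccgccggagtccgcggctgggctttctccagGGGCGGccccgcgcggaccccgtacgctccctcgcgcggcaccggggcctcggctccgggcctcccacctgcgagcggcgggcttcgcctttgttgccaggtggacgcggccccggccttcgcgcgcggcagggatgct
The ADAM10 window held 1 GC box and 1 E-box and had a GC content of 68.0%. The APLP2 window held 5 GC boxes, of which a pair overlap by 1 base, and no E-box, and had a GC content of 80.7%. Of all 35116 RefSeq windows of this length, 45% held GGGCGG on either strand and 7.26% held CACGTG, and their median GC content was 58.7%. RefSeq windows were matched for 8 of the 9 genes, with 3 for BACE1. A GC box lay in at least 1 window of 6 of these 8 genes, an E-box in that of ADAM10 alone, and the letters TATAAA in none. Of all windows, 11.5% held TATAAA. The ETS core CCGGAAG lay in windows of 4 of the 8 genes, ADAM17, BACE1, NCSTN and APH1A, beside 10.3% of all windows. The letters CCAAT lay in windows of 2 of the 8, BACE1 and APH1A, beside 34.6%. Genes and windows are unlike units, since BACE1 had 3 windows, and no motif was tested. PSEN2 and ADAM17 had 3 GC boxes each, with GC contents of 75.0% and 74.7%, APH1A had 1, at 62.3%, and NCSTN and PSENEN had none, at 62.7% and 60.0%. The BACE1 windows held 2, 0 and 1 GC boxes, at 64.3%, 52.7% and 52.3%. These matches describe letters in the windows, and no binding was measured.

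Beyond the 9 genes, 12 lists of partners, regulators and substrates of the secretases were described in the same way. Of their 100 genes, 98 were measured in the authors' deposited table, with a median of 0.0042. Of these, 22 were above 0.2 (22.4%, beside 13.1% of all named genes) and 13 below -0.2 (13.3%, beside 12.1%). Counts go by gene mean, so a gene inside the bound can hold records beyond it. Detection could not be read for the list genes either. A gene inside the bound may therefore be one not detected in these cells. The lists were chosen with earlier results of these data known.

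**Figure D3:**
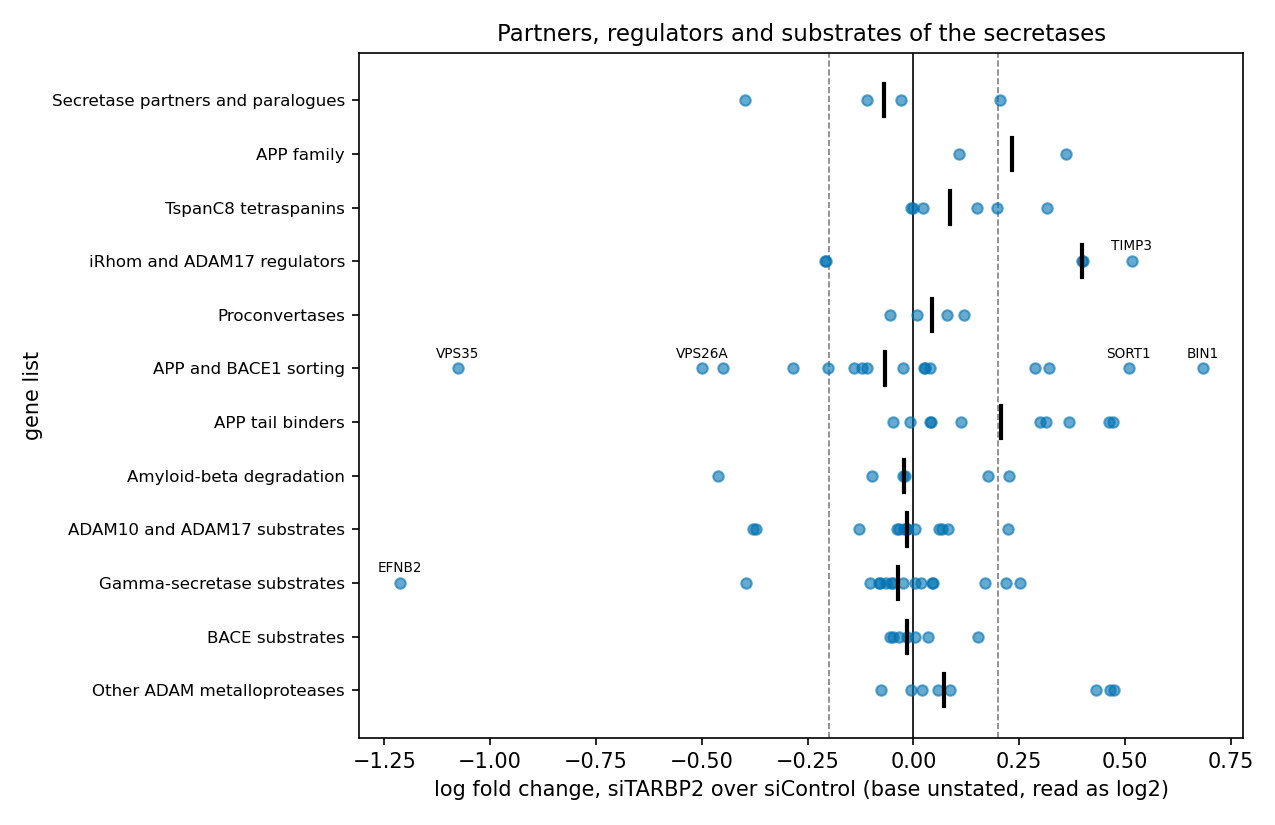
Log fold change of siTARBP2 over siControl (x axis, base unstated, read as log2) in the authors' deposited table for the measured genes of 12 lists (y axis). Points are genes, black bars are list medians and dashed lines mark -0.2 and 0.2; VPS35 (-1.08) and EFNB2 (-1.21) lie far to the left, and BIN1 (0.68) lies farthest to the right.

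Genes that act on ADAM10 and ADAM17 divided. The counts in this paragraph stand beside 13.1% of all named genes above 0.2 and 12.1% below -0.2. The 6 TspanC8 tetraspanin genes, whose products carry ADAM10 out of the endoplasmic reticulum, had a median of 0.09. By gene mean, TSPAN14 alone stood above 0.2, at 0.32, and none below -0.2 in the authors' deposited table. TSPAN17, at -0.01, had records at -0.23 and 0.22, beyond the bound in opposite directions. All 5 genes of the iRhom and ADAM17 list were beyond the bound in the authors' deposited table, beside 25.2% of all named genes. Of these 5 genes, 3 stood above and 2 below, with a median of 0.40. TIMP3, an inhibitor of ADAM17, had 0.52, PACS2, a sorting protein, 0.40, and RHBDF2, which encodes iRhom2, the escort of ADAM17, had 0.40 in the authors' deposited table. FRMD8, whose product stabilises the iRhom complex, had -0.21 in the authors' deposited table. RHBDF1, which encodes iRhom1 and was named after its value was seen, was also at -0.21, so both lay just past the bound. The 4 proconvertase genes, whose products remove the propeptides of these enzymes, all lay inside the bound in the authors' deposited table, between -0.06 and 0.12. Among partners and paralogues, ADAM9, a related metalloprotease, had -0.40 and APH1B, given above, stood just above the bound, with the other 2 of 4 inside in the authors' deposited table. Of 8 other ADAM genes, 3 stood above 0.2 in the authors' deposited table, ADAM15 at 0.48, ADAM8 at 0.46 and ADAM19 at 0.43, and none stood below -0.2. ADAM22, inside the bound at 0.09, had records from -0.06 to 0.23, the highest of class 1.

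Genes that sort APP and BACE1 had the widest range of the 12 lists. Of 16 genes in the authors' deposited table, 4 stood above 0.2 and 5 below -0.2, with a median of -0.07. Of all named genes, 13.1% stood above 0.2 and 12.1% below -0.2. VPS35, the core subunit of retromer, which returns APP and its sorting receptors from endosomes, had -1.08 in the authors' deposited table. VPS26A, another retromer subunit, had -0.50 in the authors' deposited table, with records at -0.60 and -0.40. VPS29, also a retromer subunit, had -0.45, ARF6 had -0.28 and SNX27, just past the bound, -0.20. In the other direction, BIN1, a membrane-bending endocytic protein, had 0.68 and SORT1, the sorting receptor sortilin, had 0.51 in the authors' deposited table. AP4M1 had 0.32 and GGA3 had 0.29. RTN4, inside the bound at -0.12, had records from -0.41 to 0.04. Of 10 genes for proteins that bind the tail of APP, 5 stood above 0.2 in the authors' deposited table, beside the 13.1% of all named genes. None of these 10 genes stood below -0.2, and their median was 0.21. APBB3, which encodes a Fe65-like adaptor, had 0.47, DAB2, an endocytic adaptor, 0.46, APBA3, an X11-family adaptor, 0.37 and MAPK8IP1, the JNK scaffold JIP1, 0.31 in the authors' deposited table.

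Substrates other than the APP family are given by enzyme, beside 25.2% of all named genes beyond 0.2 in the authors' deposited table. Of 14 measured substrate genes of ADAM10 and ADAM17, 11 lay between -0.2 and 0.2 in the authors' deposited table, with a median of -0.02. Those beyond it in the authors' deposited table were the EGFR ligand genes EREG at -0.38 and TGFA at -0.37, and the adhesion gene L1CAM at 0.22. The records of TGFA in the authors' deposited table were at -0.72 and -0.02 and those of L1CAM at -0.01 and 0.45, so that 1 record of each lay beyond the bound. Of 16 γ-secretase substrate genes, 12 lay inside the bound by gene mean in the authors' deposited table, with a median of -0.04. CD44, counted inside at -0.10, had records at -0.59, 0.08 and 0.199, the first of them beyond the bound. EFNB2, which encodes the Eph receptor ligand ephrin-B2, had -1.21 in the authors' deposited table, the lowest value of all 12 lists, and the receptor gene NOTCH1 had -0.39. LRP1, a large endocytic receptor, had 0.25 and the Notch ligand gene JAG2 had 0.22 in the authors' deposited table, with JAG2 records at 0.18 and 0.26. All 7 BACE substrate genes lay inside the bound by gene mean in the authors' deposited table, between -0.06 and 0.15, with a median of -0.02. The highest, ST6GAL1, had records at -0.0047 and 0.31, the latter of class 1. Of 6 measured genes for amyloid-β-degrading enzymes and related peptidases, PREP, a prolyl endopeptidase, had -0.46 and NLN, the peptidase neurolysin, 0.23 in the authors' deposited table, with a median of -0.02.

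The arrays themselves give the background for these values, without naming genes. Between 41% and 45.7% of 47321 probes were detected per array, and the median of the raw signal was 90.2 to 100.2. No probe of 21075 tested passed the comparison of siTARBP2 with siControl (limma, smallest adjusted p = 0.805, 0.0% called), and 815 had an unadjusted p under 0.05 (limma). Without siTARBP2-1 the limma count was 4479 and without siTARBP2-2 it was 12035, where the spread comes from the siControl arrays alone. The siTARBP2 arrays differed from each other with an SD of 0.852 over probes on the log2 scale, whereas the siControl arrays differed with an SD of 0.25. How far each siRNA shaped the value of any gene in the authors' deposited table was not tested. Of 20 marker genes fixed to check the cells, the authors' deposited table put 4 above 0.2 and 2 below -0.2, beside 13.1% and 12.1% of all named genes. Those above were SNAI2, CLDN7, CD14 and COL1A1, and those below were AXL and FOXA1. By list, the 5 mesenchymal markers ran from -0.52 to 0.26 (median -0.10) and the 5 luminal ones from -0.41 to 0.04 (median -0.0044). The 3 epithelial ones ran from -0.02 to 1.08 (median 0.0065) in the authors' deposited table. The 3 leukocyte markers ran from 0.01 to 0.59 (median 0.06) and the 4 of fibroblasts and endothelium from -0.02 to 0.28 (median 0.10) in the authors' deposited table. Their part in the values above was not tested, and marker levels could not be read, since the authors' deposited table holds differences only. All 4 samples came from MDA-LM2 cells. In bulk RNA of this line, fewer cells making an RNA and less of it per cell cannot be told apart.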

How the data were processed

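Biotin-labelled total RNA of 4 MDA-LM2 samples (2 siTARBP2, 2 siControl) was measured on Illumina BeadChips, per the labels. The deposited probe intensity values were not normalized, and a deposited detection score, a fraction near 1 for bright probes, stood beside each. A second deposited table held intensities normalized by the authors, with medians of 85.6 on each array; per the submitters' processing notes lumi was used. The authors' deposited table of log fold changes, read as log2, and its class are the authors' own values; how probes and arrays were joined is not given in the sources used here. Accessions were matched without versions to RefSeq (GRCh38.p14), which named 22411 of 39745 (56.4%). A member could also have records among accessions left unnamed.

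Probe intensities were normalized by neqc (limma 3.58.1 under R 4.3.3, offset of 16), kept where the detection p was under 0.05 on at least 2 arrays, and compared with lmFit and eBayes with an intensity trend, adjusted by Benjamini-Hochberg at 0.05. For groups of 2 arrays the smallest p of an exact permutation test is 0.333. Lists were described by counts and medians. The text names all 9 genes, TARBP2, APP and, per list, at most the 4 genes farthest from 0 beyond 0.2. Outside this rule it names APLP1 and RHBDF1, and the other sorting genes beyond 0.2 (VPS29, ARF6, SNX27, AP4M1 and GGA3). It also names TSPAN17, ADAM22, RTN4, CD44 and ST6GAL1, which lay inside the bound by gene mean but had a record beyond it. The planned tests of members on probes could not be run. Members and lists were chosen with earlier results of these data known. A further gene planned for the lists was left out of them and is not reported here.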

Additional observations from a re-analysis of the deposited data

How the results depend on the processing

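The count of 4 genes beyond 0.2 among the 9 held with curated accessions alone, with the median over records, and with the record farthest from or nearest to 0. With a bound of 0.1 it was 7 (4 above, 3 below), beside 42.5% of all named genes, and with 0.5 it was 2 (ADAM10 and APLP2), beside 6.35%. The values of BACE1, BACE2 and PSEN2 kept their sign with either record. No replicate could be left out of the authors' deposited table, and no paired analysis of it was possible because it holds no value per array. On the arrays, the count of 0 probes past the limma test held with the series' normalized values, normexp with a common median, no filter, detection on all 4 arrays and no trend. At an unadjusted p under 0.05, normexp gave 585 higher and 170 lower probes, against 388 and 427 with neqc. The replicate block also gave 0 probes (limma, smallest adjusted p = 0.339); same-numbered arrays deviated with a correlation of -0.042 over probes, so the numbers were not taken as pairs. With 1 array left out, the count ran from 0 (without either control) to 12035: it was 4479 without siTARBP2 replicate 1 and 12035 without siTARBP2 replicate 2, on the assumption that the single array left had the spread of the control pair. Planned tests of members on probes were not run, since no table used here pairs probes with genes.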
